A study of Mus musculus with 12 samples.

Results

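The 9 genes described here, Clec4d, Clec4e, Clec5a, Clec4n, Clec7a, Clec4a1, Clec4a3, Clec4a2 and Clec12a, encode C-type lectin receptors of myeloid cells and were taken by name from the 23863 genes of the count table. All 9 were found and all 9 passed the filter on low counts, which kept 13236 genes for testing. The RNA came from mouse bone marrow precursors of osteoclasts, sorted as CD3-, CD45R-, CD11b-/lo and CD115+ cells and cultured in 4 groups of 3 libraries: female M-CSF+RANKL, female M-CSF, male M-CSF+RANKL and male M-CSF. M-CSF is the growth factor that keeps the macrophage lineage alive, and RANKL, given at 30 ng/ml, is the cytokine that turns precursors into bone-resorbing osteoclasts. All 4 groups came from RUNX1 fl/+ mice, which carry 1 floxed allele of a blood cell transcription factor gene. The labels name no Cre and give no age, and the titles also carry the tag WT. Culture lasted 3 days by the titles, although the growth protocol states a longer time. The labels do not tie libraries to individual mice, and the p-values below therefore reflect a spread between libraries that may be technical.

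C-type lectin receptors read the surface of microbes and of damaged cells. Clec4d (MCL), Clec4e (Mincle) and Clec4n (Dectin-2) pair with the FcRγ chain, Clec5a (MDL-1) pairs with the adaptor DAP12, and Clec7a (Dectin-1), the receptor for fungal beta-glucan, carries a signalling motif of its own. These receptors work through the kinase Syk, several of them through the Card9, Bcl10 and Malt1 complex, and the FcRγ and DAP12 chains also carry the costimulatory signal that osteoclast precursors need beside RANKL. Clec4a2 (DCIR) and Clec12a (MICL) are inhibitory receptors whose tail recruits the phosphatases SHP-1 and SHP-2. Clec4a1 and Clec4a3 are close relatives of DCIR.

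The 9 receptors did not move together with RANKL. Of the 5 activating receptor genes, Clec4d, Clec4e and Clec5a were lower in M-CSF+RANKL cultures of both sexes. Both inhibitory receptor genes, Clec4a2 and Clec12a, were higher in M-CSF+RANKL cultures of both sexes. The other 2 activating genes, Clec4n and Clec7a, and the DCIR relatives Clec4a1 and Clec4a3 had positive log2 fold changes of 0.17 to 0.61. Of these, that of Clec4a3 in females passed the threshold. In females 3 of the 9 genes rose and 3 fell, beside 51.9% of all tested genes that changed, 26.8% up and 25.1% down. In males 2 rose and 3 fell, beside 55.0% of all tested genes, 28.4% up and 26.6% down. These calls are from edgeR's quasi-likelihood test at a Benjamini-Hochberg adjusted p below 0.05 over all genes tested. Since RANKL changed a like share of all tested genes, the number of receptors called is not a result about them, and the results below are their sizes and directions. The median of their log2 fold changes was 0.50 for females and 0.38 for males, against 0.03 and 0.01 over all tested genes.

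All 9 genes lie on mouse chromosome 6 in build GRCm38, the same assembly as the mm10 that the submitters name. Clec4a1, Clec4a3, Clec4a2, Clec4n, Clec4d and Clec4e stand in 1 cluster that spans 368 kb. Within it Clec4d (chromosome 6, 123262111 to 123275265, plus strand) and Clec4e (123281789 to 123289870, minus strand) are 6.5 kb apart. Clec12a (129342691 to 129365303, plus strand) and Clec7a (129461591 to 129472779, minus strand) form a second pair with 96 kb between them. Clec5a lies alone at 40574894 to 40585821 on the minus strand. The cluster thus held genes that moved in opposite directions: Clec4a2 (123106428 to 123143999, plus strand) was higher with RANKL, and Clec4d and Clec4e were lower.

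The promoter windows of the 4 receptor genes with the largest falls and rises are shown because 3 of them, Clec4d, Clec4e and Clec4a2, lie in 1 cluster and moved in opposite directions. Each is 300 bases from RefSeq (GRCm38.p6) that end 50 bases after the start of the transcript, 5′ to 3′ on the gene's strand. Capitals mark every match, on either strand, to GAGGAA (the core of sites for PU.1, the master factor of myeloid cells), TTGCNNAA (C/EBP, a family of myeloid factors) or TGANTCA (AP-1, the dimer that holds c-Fos, which osteoclasts need). No matches overlapped in these windows. They are Clec4d at chr6:123261857-123262156 (plus strand), Clec4e at chr6:123289822-123290121 (minus strand), Clec4a2 at chr6:123122440-123122739 (plus strand) and Clec12a at chr6:129349994-129350293 (plus strand).
Clec4d: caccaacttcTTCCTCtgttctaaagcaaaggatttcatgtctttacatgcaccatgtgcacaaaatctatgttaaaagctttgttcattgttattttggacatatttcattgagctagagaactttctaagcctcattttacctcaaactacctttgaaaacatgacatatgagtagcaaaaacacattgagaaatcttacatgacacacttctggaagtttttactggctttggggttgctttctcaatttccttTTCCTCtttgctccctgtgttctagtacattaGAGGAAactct
Clec4e: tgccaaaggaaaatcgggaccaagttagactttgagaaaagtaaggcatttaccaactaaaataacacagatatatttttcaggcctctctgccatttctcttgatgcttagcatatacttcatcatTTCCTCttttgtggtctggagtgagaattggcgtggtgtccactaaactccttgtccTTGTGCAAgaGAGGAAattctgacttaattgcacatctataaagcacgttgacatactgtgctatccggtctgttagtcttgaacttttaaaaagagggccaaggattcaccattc
Clec4a2: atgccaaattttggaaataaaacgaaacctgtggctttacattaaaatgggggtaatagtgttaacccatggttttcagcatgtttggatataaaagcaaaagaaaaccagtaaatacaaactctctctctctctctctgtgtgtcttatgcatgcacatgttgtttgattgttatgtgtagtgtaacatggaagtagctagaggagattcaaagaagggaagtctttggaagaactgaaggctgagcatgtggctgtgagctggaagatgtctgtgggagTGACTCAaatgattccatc
Clec12a: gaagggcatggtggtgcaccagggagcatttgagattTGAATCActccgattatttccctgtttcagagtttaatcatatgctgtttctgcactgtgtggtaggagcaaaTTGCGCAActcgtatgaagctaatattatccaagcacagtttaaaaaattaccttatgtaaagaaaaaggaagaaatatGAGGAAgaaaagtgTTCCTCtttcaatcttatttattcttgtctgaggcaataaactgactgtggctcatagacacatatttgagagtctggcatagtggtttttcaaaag
The Clec4d window held 3 matches to GAGGAA. Clec4e held 2 matches to GAGGAA and 1 to TTGCNNAA, Clec12a held 2, 1 and also 1 to TGANTCA, and Clec4a2 held only 1 match to TGANTCA, 31 bases after the start. GAGGAA was found in 28.3% of the 32851 mouse promoters compared, TTGCNNAA in 10.8% and TGANTCA in 7.81%. The RefSeq starts used for Clec4a2 and Clec12a lie inside the spans that the GENCODE annotation gives these genes, so other starts of theirs are not shown. RefSeq windows were at hand for 8 of the 9 genes. A match describes letters and is no evidence of binding.

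Clec4d, which helps bring Clec4e to the cell surface, had the largest change. Its level was 132, 155 and 206 CPM (read counts put on 1 common scale of library size) in female M-CSF+RANKL libraries 1, 2 and 3, against 837, 717 and 877 CPM in female M-CSF. In males it was 121, 113 and 103 CPM with M-CSF+RANKL, against 816, 655 and 734 CPM with M-CSF. Every library with RANKL lay below every library without it, in both sexes, as was so in one direction or the other for 58.3% of all tested genes in females and 61.2% in males. The log2 fold change was -2.30 ± 0.16 (SE) in females, a level 0.202 times that in M-CSF (95% interval 0.160 to 0.256, adjusted p = 4.87e-08 by edgeR). In males it was -2.71 ± 0.16, or 0.153 times (0.120 to 0.194, adjusted p = 1.01e-08). Only 3.16% of all tested genes in females and 3.11% in males had a fold change as low or lower.

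Clec4e, the receptor for mycobacterial cord factor and for a protein released by dying cells, fell in the same direction with a wider spread. It had 74.1, 61.1 and 143 CPM in female M-CSF+RANKL libraries, against 170, 157 and 251 CPM in female M-CSF. Male M-CSF+RANKL libraries had 44.9, 42.7 and 56.3 CPM, against 102, 132 and 197 CPM in male M-CSF. The groups did not overlap in either sex, and library 3 was the highest in each of the 4 groups. On the log2 scale Clec4e changed by -1.06 ± 0.30 in females (adjusted p = 0.00955, edgeR) and by -1.58 ± 0.31 in males (adjusted p = 0.000615). In females it ranged between -1.50 without M-CSF+RANKL library 3 and -0.83 without M-CSF library 3.

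Clec5a, the DAP12-coupled receptor, fell least of the 3. Female M-CSF+RANKL libraries had 43.5, 40.3 and 64.4 CPM, against 71.9, 70.0 and 75.7 CPM in female M-CSF. Male M-CSF+RANKL libraries had 29.0, 30.4 and 32.4 CPM, against 53.3, 47.1 and 80.5 CPM in male M-CSF. Again, within each sex, no library with RANKL reached the lowest one without it. Clec5a changed by -0.55 ± 0.20 on the log2 scale in females (adjusted p = 0.0290, edgeR) and by -0.98 ± 0.20 in males (adjusted p = 0.000827). The call in females was lost without M-CSF library 1, 2 or 3 or without M-CSF+RANKL library 1 or 2, with adjusted p = 0.0591, 0.0560, 0.0723, 0.109 and 0.103 in that order.

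**Figure D1:**
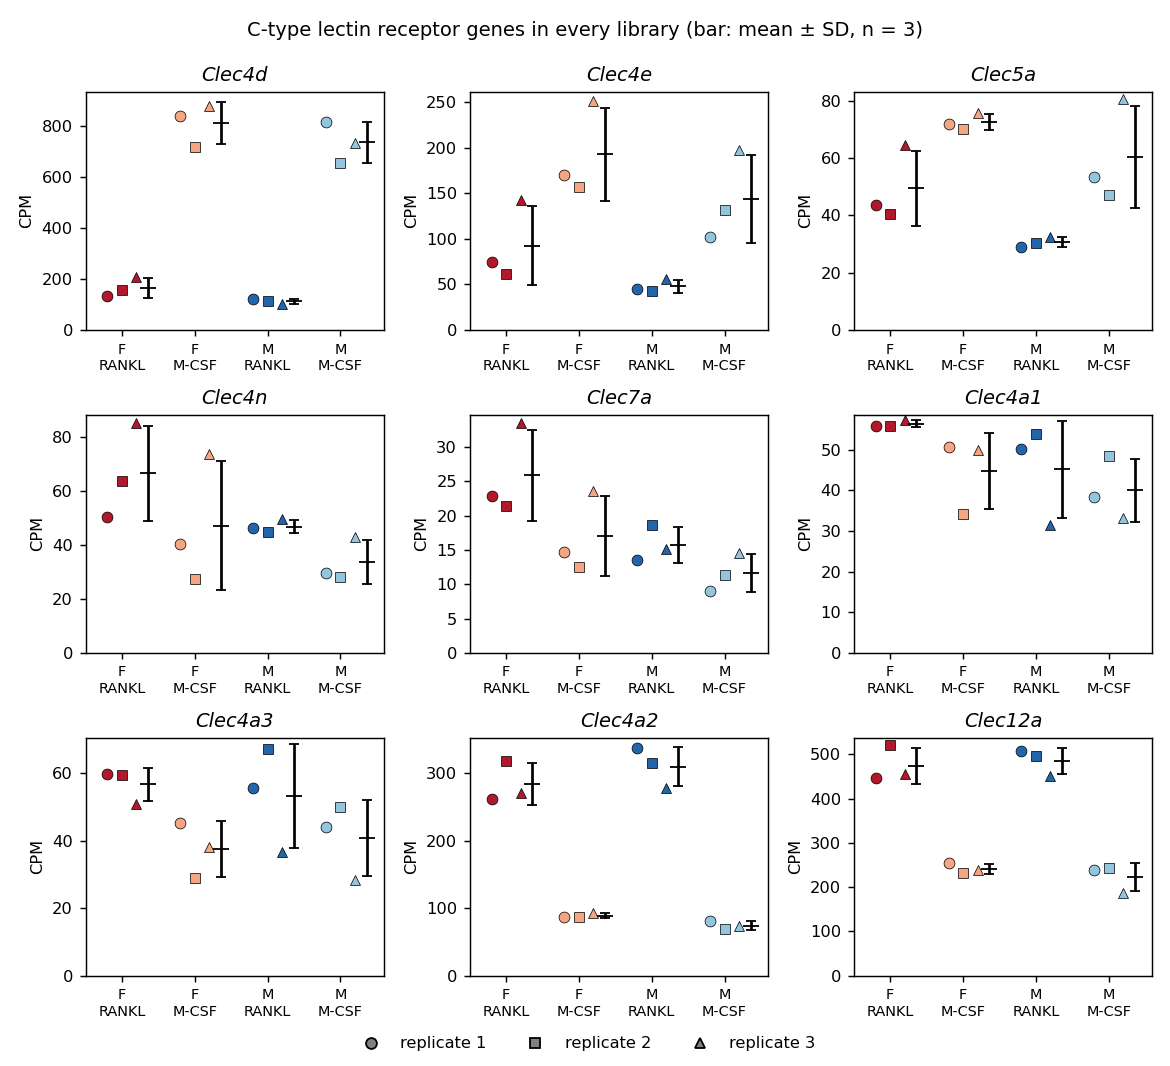
Level of each receptor gene in every library, in CPM on axes that start at 0, with 1 panel per gene. F and M are female and male, RANKL stands for M-CSF+RANKL, marker shapes give the replicate number and the black bars are mean ± SD (n = 3). Within a sex, Clec4d, Clec4e and Clec5a lie lower with RANKL and Clec4a2 and Clec12a higher, with no overlap. The libraries of Clec7a overlap in both sexes.

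Clec4a2 had the largest rise. Its level was 262, 319 and 271 CPM in female M-CSF+RANKL libraries, against 86.8, 86.4 and 93.6 CPM in female M-CSF. In males it was 338, 315 and 279 CPM with M-CSF+RANKL, against 80.7, 68.6 and 74.0 CPM with M-CSF. All 6 libraries with RANKL lay far above all 6 without it. The log2 fold change was 1.68 ± 0.11 in females, 3.19 times the M-CSF level (95% interval 2.71 to 3.76, adjusted p = 3.24e-08 by edgeR). In males it was 2.06 ± 0.11, or 4.17 times (3.53 to 4.93, adjusted p = 4.62e-09).

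Clec12a, the inhibitory receptor for uric acid crystals, was present in both conditions and rose with RANKL. Female M-CSF+RANKL libraries had 446, 521 and 456 CPM, against 254, 233 and 238 CPM in female M-CSF. Male M-CSF+RANKL libraries had 508, 497 and 451 CPM, against 239, 244 and 187 CPM in male M-CSF. The groups were well apart in both sexes. Its rise on the log2 scale was 0.97 ± 0.11 in females (adjusted p = 7.78e-06, edgeR) and 1.12 ± 0.11 in males (adjusted p = 1.77e-06).

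Most calls of the remaining 4 receptors depended on whether replicate numbers were used. Clec4a3 in females was called with and without them, and Clec4a1 in males was called neither way. Within a sex, libraries with the same number deviated together from their group means, so a fit with the number as a block compares each library with its own partner. With that block 9 of the 9 receptors were called in females, 6 up and 3 down, and 8 in males, 5 up and 3 down. Of all tested genes, that fit called 60.5% in females and 63.1% in males. The directions were the same as without it.

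Clec4n, the receptor for fungal mannans, had 50.4, 63.7 and 85.0 CPM in female M-CSF+RANKL libraries, against 40.1, 27.2 and 73.5 CPM in female M-CSF. Male M-CSF+RANKL libraries had 46.1, 44.5 and 49.5 CPM, against 29.7, 28.2 and 42.8 CPM in male M-CSF. The female groups overlapped through the high M-CSF library 3 and the male groups lay just apart, and each library with RANKL exceeded its partner of the same number in both sexes. Its log2 fold change was 0.50 ± 0.29 in females (adjusted p = 0.170, edgeR) and 0.47 ± 0.29 in males (adjusted p = 0.192). With the replicate block it was 0.57 (adjusted p = 0.00939, edgeR) in females and 0.49 (adjusted p = 0.0210) in males. Without female M-CSF library 3 the female value was 0.97 (adjusted p = 0.00581), and without female M-CSF library 2 it was 0.22 (adjusted p = 0.523).

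Clec7a, the beta-glucan receptor, had 22.9, 21.4 and 33.5 CPM in female M-CSF+RANKL libraries, against 14.7, 12.5 and 23.6 CPM in female M-CSF. Male M-CSF+RANKL libraries had 13.5, 18.7 and 15.1 CPM, against 9.0, 11.4 and 14.5 CPM in male M-CSF. Both pairs of groups overlapped, and every library with RANKL exceeded its partner. Clec7a had a log2 fold change of 0.61 ± 0.25 in females (adjusted p = 0.0542, edgeR) and 0.43 ± 0.26 in males (adjusted p = 0.172). With the replicate block it was 0.63 (adjusted p = 0.00121, edgeR) in females and 0.44 (adjusted p = 0.0146) in males. The female value was called without female M-CSF library 3 (0.92, adjusted p = 0.00772), female M-CSF+RANKL library 2 (0.72, adjusted p = 0.0390) or male M-CSF library 3 (0.61, adjusted p = 0.0478), and was lowest without female M-CSF+RANKL library 3 (0.40, adjusted p = 0.233). In the authors' deposited table, which rests on fewer genes, Clec7a in females had a log2 fold change of 0.63 with a false discovery rate of 0.0478, the only receptor and comparison where that table and the call above part.

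Clec4a1 and Clec4a3 had positive fold changes in both sexes. Clec4a1 had 56.0, 56.0 and 57.4 CPM in female M-CSF+RANKL libraries, against 50.6, 34.1 and 50 CPM in female M-CSF, and 50.3, 53.8 and 31.5 CPM in male M-CSF+RANKL, against 38.3, 48.6 and 33.2 CPM in male M-CSF. The female groups lay apart by a narrow margin and the male groups overlapped. Its log2 fold change was 0.33 ± 0.20 in females (adjusted p = 0.189, edgeR) and 0.17 ± 0.20 in males (adjusted p = 0.497), and with the replicate block the female value was 0.35 (adjusted p = 0.0254).

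Clec4a3 had 59.7, 59.5 and 51.0 CPM in female M-CSF+RANKL libraries, against 45.4, 29.0 and 38.2 CPM in female M-CSF. Male M-CSF+RANKL libraries had 55.7, 67.2 and 36.8 CPM, against 44.0, 50 and 28.4 CPM in male M-CSF. The female groups did not overlap and the male groups did, with male library 3 low under both treatments. Clec4a3 had log2 fold changes of 0.60 ± 0.24 in females (adjusted p = 0.0478, edgeR) and 0.38 ± 0.23 in males (adjusted p = 0.185), and the male value was called with the replicate block (0.38, adjusted p = 0.0135) and without male M-CSF+RANKL library 3 (0.60, adjusted p = 0.0344). Without male M-CSF library 3 it was 0.18 (adjusted p = 0.553). The female call was lost without M-CSF library 2 or 3, M-CSF+RANKL library 1 or 2, or library 1 of either male group, with adjusted p between 0.0547 and 0.170.

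**Figure D2:**
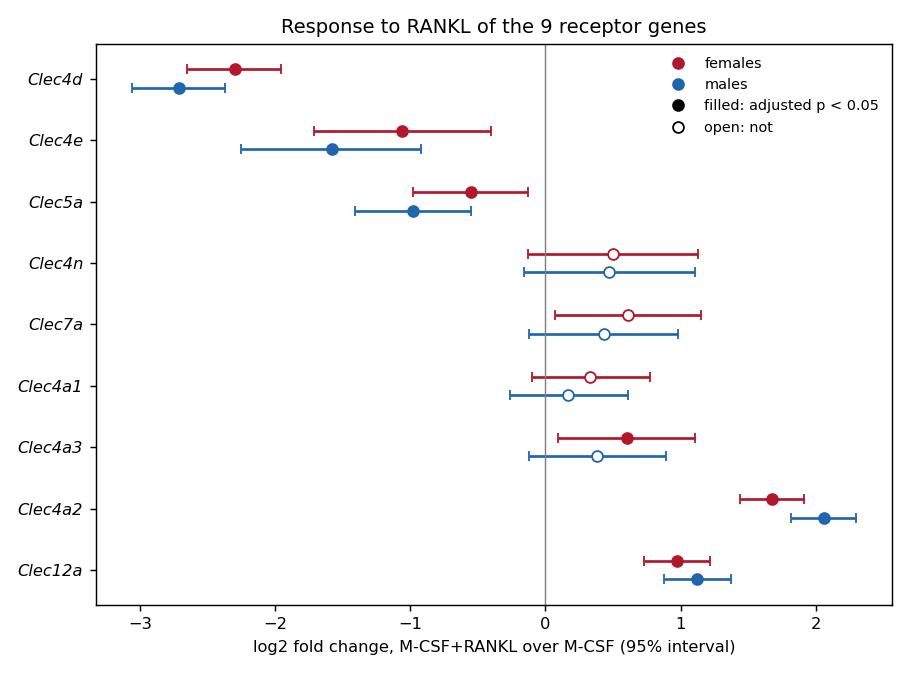
Response of each receptor gene to RANKL, as the log2 fold change of M-CSF+RANKL over M-CSF with its 95% interval, not adjusted for the number of genes. Filled points passed an adjusted p of 0.05 in edgeR's quasi-likelihood test on 12 libraries and open points did not. Clec4d stands at -2.30 in females and -2.71 in males, and Clec4a2 at 1.68 and 2.06.

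The receptors' shares of the reads differed between the treatments. Of the counts of the 9 genes together, Clec4d took 12.8 ± 1.97% in female M-CSF+RANKL and 52.3 ± 1.17% in female M-CSF (SD, n = 3 each). In males it took 9.77 ± 0.230% with M-CSF+RANKL and 53.9 ± 3.52% with M-CSF. Clec12a took 37.5 ± 3.61% in female M-CSF+RANKL and 15.7 ± 1.67% in female M-CSF, and 42.3 ± 0.436% in male M-CSF+RANKL, against 16.4 ± 2.83% in male M-CSF. Clec4a2 took 22.4 ± 2.43% in female M-CSF+RANKL and 5.76 ± 0.487% in female M-CSF, and 27.0 ± 0.839% in male M-CSF+RANKL, against 5.46 ± 0.225% in male M-CSF. These shares are of reads and are not corrected for transcript length. The 9 genes summed to 1055 to 1367 CPM in the 6 libraries with RANKL and to 1285 to 1721 CPM in the 6 without it. Clec4a2 had 1.31 to 2.79 times the counts of Clec4d with RANKL, against 0.0989 to 0.120 times without it, so it had more reads than Clec4d in every library with RANKL and fewer in every library without.

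Levels were set against each other per length, as RPKM (CPM divided by the GENCODE exon length in kb). Clec4d led in M-CSF cultures by more than its spread, at 506 ± 52.0 RPKM in females and 460 ± 50 in males, with Clec12a next at 43.7 ± 1.97 and 40.4 ± 5.70 RPKM. From Clec12a down to the next 5 genes in females and the next 6 in males, the libraries of neighbours in the order overlapped. In male M-CSF+RANKL the order was Clec4a2 at 106 ± 10.4 RPKM, Clec12a at 87.8 ± 5.46 and Clec4d at 70.3 ± 5.66, and neighbours among these 3 did not overlap. In female M-CSF+RANKL Clec4d at 103 ± 23.8, Clec4a2 at 97.0 ± 10.5 and Clec12a at 85.8 ± 7.33 RPKM overlapped in turn. Clec7a was lowest in all 4 groups, with means between 4.41 and 9.83 RPKM. In female M-CSF+RANKL its libraries overlapped those of Clec5a, the next gene up, and in the other 3 groups they did not.

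**Figure D3:**
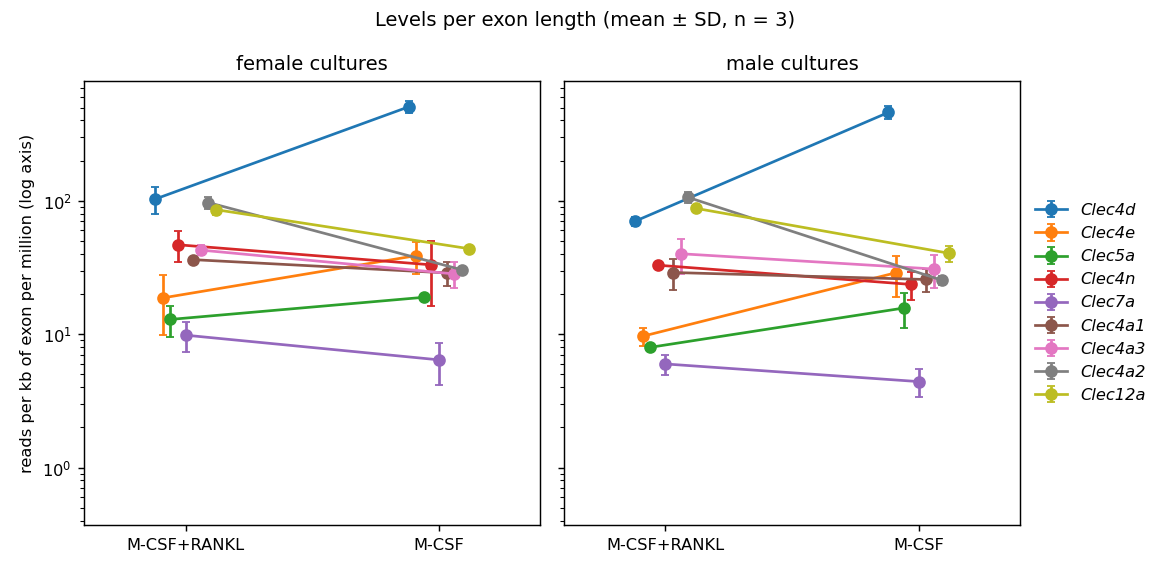
Mean level of each receptor gene per exon length, in RPKM on a log axis, with SD (n = 3), in female cultures (left panel) and male cultures (right panel). Lines join a gene's M-CSF+RANKL mean to its M-CSF mean. The line of Clec4d crosses those of Clec4a2 and Clec12a in males, and in females the 3 genes meet near 100 RPKM with RANKL.

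Counts for 1 receptor could in part be reads of a close copy. Of the 50-base windows of its transcripts, Clec4a2 shared 6.69% with other genes, Clec4a4 and Clec4b1 of the same cluster among them. Clec4n shared 0.686%, Clec12a 0.402% and the other 6 none. Clec4a4 (DCIR2) was itself higher with RANKL, at 10.5, 13.4 and 12.9 CPM in female M-CSF+RANKL libraries, against 0.469, 0.382 and 0.633 CPM in female M-CSF, while Clec4b1 was not called. In every library Clec4a4 stood far below Clec4a2 in CPM. The only gene that overlaps a receptor gene is Gm44132, a pseudogene within Clec4a2 that shares 0 exon bases with it. The files give Clec7a the type polymorphic pseudogene, a class for genes that are intact in some mouse strains only.

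The chain and kinase genes through which the receptors act moved both ways. Of 17 signalling genes chosen for these receptors, all tested, 4 rose and 6 fell in both sexes, beside 24.4% of all tested genes that rose and 22.7% that fell in both. Fcer1g, which encodes the FcRγ chain that Clec4d, Clec4e and Clec4n need, fell by 1.11 on the log2 scale in females and fell by 1.04 in males, to means of 306 and 295 CPM with RANKL, against 658 and 608 CPM in M-CSF. Syk rose by 1.21 in both sexes, to 383 and 398 CPM with RANKL, against 165 and 172 CPM in M-CSF. Malt1, the protease of the Card9 complex, rose by 1.67 in females and 1.38 in males. Src, a kinase that resorbing osteoclasts need, rose by 8.74 and 9.72, to 384 ± 45.1 and 440 ± 26.7 CPM with RANKL, against 0.884 ± 0.0962 and 0.516 ± 0.219 CPM in M-CSF (SD, n = 3). Adjusted p-values of these 4 genes ran between 3.30e-12 and 2.07e-05 (edgeR). Card9 had log2 fold changes of -0.10 and -0.14 and Bcl10 of 0.01 and 0.13, none called. Tyrobp, which encodes DAP12, had a log2 fold change of 0.19 in females (adjusted p = 0.249, edgeR) and 0.36 in males (adjusted p = 0.0309), and the difference between the sexes was not called. Ptpn6, which encodes SHP-1, rose by 0.28 in females and 0.35 in males.

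Other C-type lectin genes split as well. Of 39 on the list 33 were in the count table and 19 were tested. Of these 6 rose and 8 fell in both sexes, beside 24.4% of all tested genes that rose and 22.7% that fell in both. Mrc1, the mannose receptor, fell by 5.86 on the log2 scale in females and fell by 5.95 in males, to 13.7 ± 5.56 and 18.4 ± 7.52 CPM with RANKL, against 795 ± 331 and 1140 ± 378 CPM in M-CSF. Cd93, a lectin-like receptor of monocytes and endothelium, had log2 fold changes of -3.55 and -4.17. Clec4a4 rose by 4.62 and 5.59, and Cd207, the langerin gene, rose by 3.17 and 5.06. Reads were few without RANKL, where Clec4a4 had 17 and 9 counts in all over the 3 female and the 3 male M-CSF libraries. Of 15 genes named as outputs of these receptors, 14 were in the table and 9 were tested. In both sexes 1 rose and 2 fell, beside the same shares of all tested genes. Il1b rose in both sexes, by 1.25 and 1.44, at low levels. It had 1.5 and 0.917 CPM in female and male M-CSF, against 3.62 and 2.46 CPM with RANKL. Nlrp3, an inflammasome sensor, had log2 fold changes of -2.31 and -2.95 and the cytokine gene Tnf of -1.76 and -1.73. Adjusted p for Il1b, Nlrp3 and Tnf lay between 3.97e-05 and 0.00392 (edgeR).

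Markers of other cells were read beside these values. Of all tested genes, 24.4% rose and 22.7% fell in both sexes. All 10 osteoclast markers rose in both sexes, with sums of 29400 to 39100 CPM in M-CSF+RANKL libraries, against 73.4 to 79.8 CPM in M-CSF libraries. Of 8 macrophage markers 6 fell in both sexes, with sums of 5720 to 8540 CPM in M-CSF+RANKL, against 13900 to 19300 CPM in M-CSF. In bulk RNA, fewer cells of a type and less RNA per cell cannot be told apart. Of 15 neutrophil markers none was at 0 over the 12 libraries, 12 were tested and 2, Csf3r and Mmp8, fell in both sexes. Mmp8 held 17561 of the reads over all libraries, and Ly6g and Retnlg, of mature neutrophils, 5 each. The 15 markers summed to 151 to 408 CPM in female M-CSF+RANKL, 296 to 552 CPM in female M-CSF, 100 to 145 CPM in male M-CSF+RANKL and 214 to 259 CPM in male M-CSF. Mmp8 alone had means of 65.5 CPM with M-CSF+RANKL and 207 CPM with M-CSF in females, and of 39 and 149 CPM in males. The other 10 tested neutrophil markers were called in neither sex, so the lower sums with RANKL follow Mmp8 more than the list. Of 8 dendritic cell markers 7 were tested. Zbtb46, Itgae and Ccr7 rose in both sexes and Batf3 fell in both. The 8 summed to 12.8 to 17.0 CPM in female M-CSF+RANKL, 11.3 to 14.3 CPM in female M-CSF, 13.9 to 16.0 CPM in male M-CSF+RANKL and 11.5 to 11.9 CPM in male M-CSF. Kit, of the mast cell and basophil markers, and Prg2, of the eosinophil markers, also rose in both sexes, with list sums of at most 4.29 and 1.80 CPM in any library. B cell markers summed to at most 4.43 CPM and T and NK cell markers to at most 0.991 CPM in any library. The part of these cells in the receptor values was not tested. The libraries held 10646697 to 15983769 counts, and mitochondrial reads made up 2.96 to 3.86% of them with RANKL, against 1.43 to 2.35% without it.

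Within the female groups 1 pair of libraries stood out. Female libraries of number 3 had the highest neutrophil marker sums of their groups, 408 CPM with M-CSF+RANKL and 552 CPM with M-CSF. Their macrophage marker sums were also the highest. These were 8540 CPM, against 7010 and 7150 CPM, with M-CSF+RANKL, and 18700 CPM, against 18500 and 17000 CPM, with M-CSF. The osteoclast marker sum of M-CSF+RANKL library 3 was the lowest of its group, 29400 CPM, against 35800 and 35400 CPM. In both female libraries of number 3, Clec4d, Clec4e, Clec5a, Clec4n and Clec7a were also the highest of their group. Clec4e lay 0.72 above its group mean on the log2 CPM scale in M-CSF+RANKL library 3 and 0.41 above in M-CSF library 3, and Clec4n lay 0.39 and 0.77 above. Clec4a2 and Clec12a stayed within 0.07 of their group means in these 2 libraries. In males the libraries of number 3 also had the highest Clec4e, Clec5a and Clec4n of their groups. Their neutrophil sums were 100 CPM with M-CSF+RANKL, the lowest of its group, and 219 CPM with M-CSF, the middle one. Their macrophage sums, 5720 and 13900 CPM, were the lowest of their groups. The osteoclast sum of male M-CSF+RANKL library 3, 36700 CPM, was the middle one. The part of any of these lists in the receptor values was not tested. Clec4a1 and Clec4a3 lay 0.48 and 0.49 below their group means in male M-CSF+RANKL library 3 and 0.25 and 0.48 below in male M-CSF library 3. Without both female libraries of number 3, a choice made after seeing the data, 7 receptors were called in females, 4 up and 3 down, and 5 in males, where 43.2% of all tested genes were called in females and 53.5% in males.

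**Figure D4:**
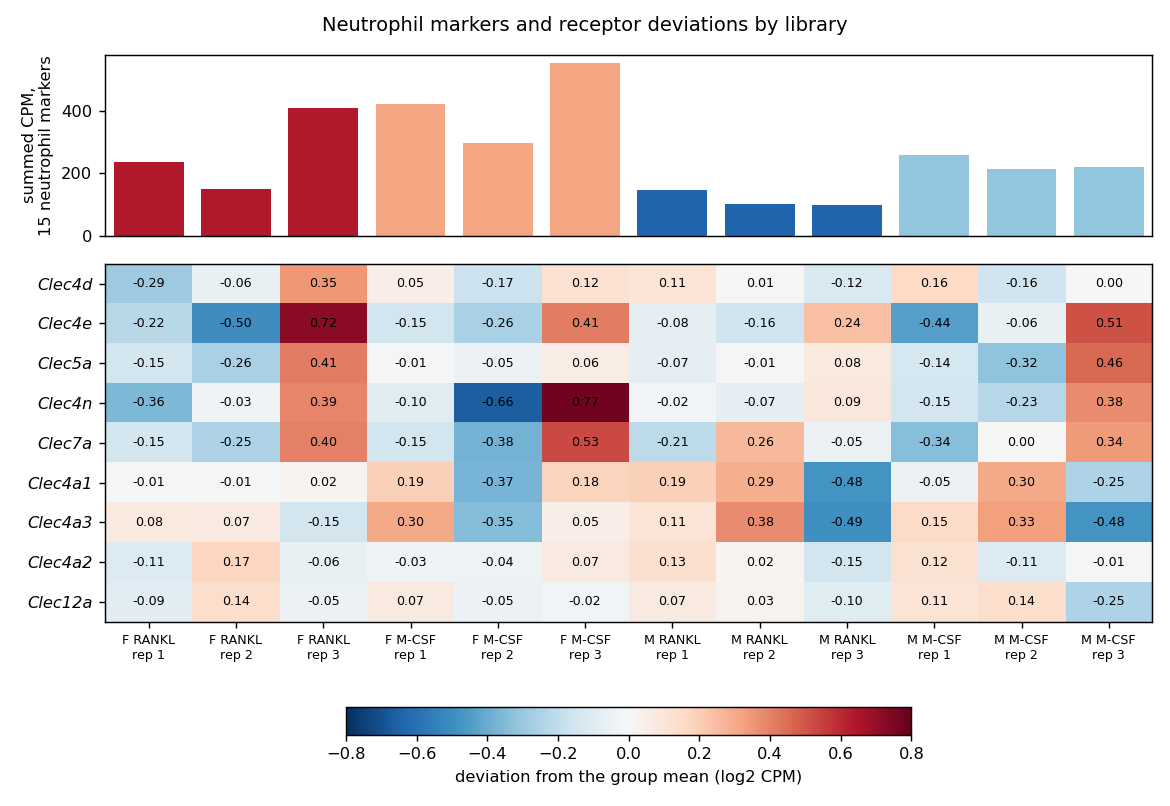
Summed level of 15 neutrophil markers in CPM (upper panel, bars from 0) and the deviation of each receptor gene from its group mean on the log2 CPM scale (lower panel), for the 12 libraries. Female libraries of number 3 have the highest bars of their groups, 408 and 552 CPM, and positive deviations of Clec4d, Clec4e, Clec5a, Clec4n and Clec7a.

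Whether RANKL acted differently in the sexes was tested as the difference of the log2 fold changes, female minus male. It was called for 0 of 13236 genes by edgeR and by DESeq2, with 260 and 225 genes at an unadjusted p below 0.05, so the background share was 0%. None of the 9 receptors was called, and 1 had an unadjusted p below 0.05. That was Clec4a2, whose rise was smaller in females by 0.39 ± 0.15 on the log2 scale (unadjusted p = 0.0245, adjusted p = 1 in edgeR's test on all genes). For Clec4d the difference was 0.41 ± 0.21 (95% interval -0.05 to 0.87) and for Clec4e 0.53 ± 0.43 (-0.39 to 1.45). The intervals leave room for sizeable differences in either gene.

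Set directly against male cultures, female cultures had no receptor past the threshold. In M-CSF+RANKL 0 of the 9 receptors were called, beside 0.0529% of all tested genes, 7 in number. The log2 fold change of female over male was 0.95 ± 0.31 for Clec4e, 0.72 ± 0.25 for Clec7a, 0.69 ± 0.20 for Clec5a and 0.55 ± 0.15 for Clec4d, with unadjusted p of 0.00833, 0.0125, 0.00396 and 0.00315 in the edgeR test and adjusted p of at least 0.795. For 6 of the 9 receptors each of the 3 female libraries lay above each of the 3 male ones, among 7.61% of all tested genes whose groups did not overlap in either direction. These were Clec4d, Clec4e, Clec5a, Clec4n, Clec7a and Clec4a1. Without female M-CSF+RANKL library 3 the female excess was 0.50 for Clec4e, 0.49 for Clec7a, 0.46 for Clec5a and 0.36 for Clec4d. That library had the highest level of each of these genes in its group, so leaving it out lowers the excess. These were the lowest values over all settings, and the highest were 1.16 for Clec4e, 0.85 for Clec7a, 0.81 for Clec5a and 0.68 for Clec4d. Neutrophil marker sums were 237, 151 and 408 CPM in female M-CSF+RANKL libraries, against 145, 103 and 100 CPM in male ones. Macrophage marker sums were 7010, 7150 and 8540 CPM in female M-CSF+RANKL libraries, against 6580, 6030 and 5720 CPM in male ones. Osteoclast marker sums overlapped, at 35800, 35400 and 29400 CPM in females and 39100, 33600 and 36700 CPM in males. The part of these markers in the difference was not tested. In M-CSF 0 of the 9 were called, beside 0.0453% of all tested genes. There Clec4a2 alone had groups that did not overlap, beside 8.42% of all tested genes, with 86.8, 86.4 and 93.6 CPM in females, against 80.7, 68.6 and 74.0 CPM in males. Its log2 fold change of female over male was 0.26 ± 0.11 (unadjusted p = 0.0341, adjusted p = 0.873, edgeR).

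**Figure D5:**
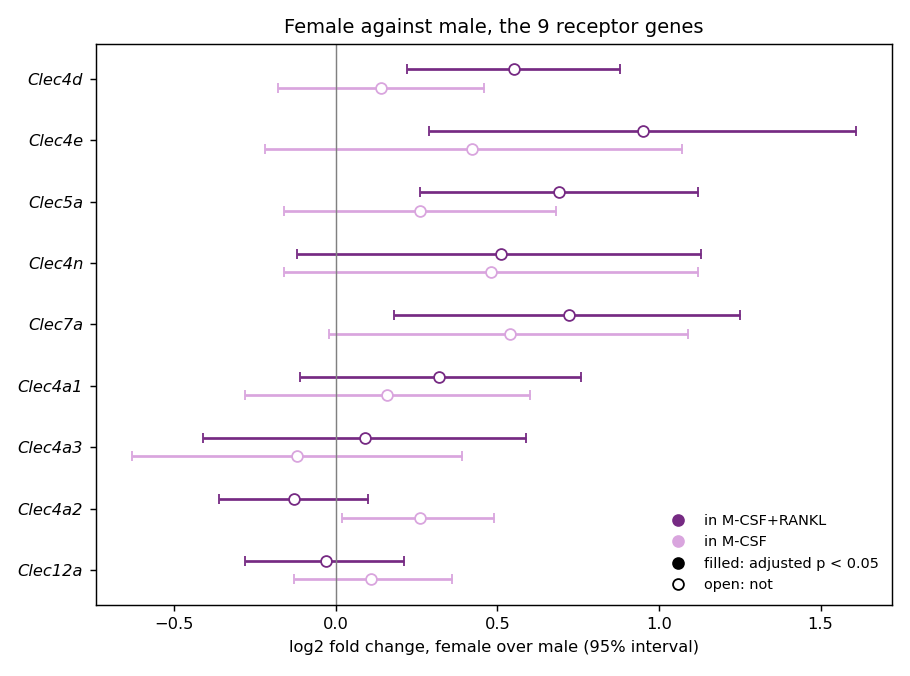
Female against male level of each receptor gene, as a log2 fold change with its 95% interval, not adjusted for the number of genes, in M-CSF+RANKL (dark points) and in M-CSF (light points). All points are open because none passed an adjusted p of 0.05 in edgeR's quasi-likelihood test. The 4 intervals of Clec4d, Clec4e, Clec5a and Clec7a in M-CSF+RANKL lie above 0, as does that of Clec4a2 in M-CSF (0.02 to 0.49).

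Over the 12 libraries the receptors fell into patterns that can be described by the distance between their centred log2 CPM profiles, as a root mean square difference. Clec4n and Clec7a were closest to each other of 9827 genes compared, at 0.22, although they lie in separate parts of the chromosome. Clec4a1 and Clec4a3 were 0.21 apart and Clec4e and Clec5a 0.37. Clec4d was 0.70 from its neighbour Clec4e and 2.21 from Clec4a2. Beyond the receptors, the 2 genes nearest to Clec4d were Gna15 (0.13) and Lmo2 (0.15). Those nearest to Clec4e were Il18rap (0.20) and Lpar6 (0.25), and to Clec5a Gpr35 (0.18) and Fkbp5 (0.21). The nearest to Clec4a2 were Cyc1 (0.09) and Xylb (0.10), and to Clec12a Acads (0.06) and Nipsnap2 (0.08). Clec4a1 was nearest to Plgrkt (0.16) and Clec4a3 to Gm21188 (0.16). The contrast between the 6 libraries with and the 6 without RANKL enters every one of these distances.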

How the data were processed

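RNA sequencing measured 12 libraries in 4 groups of 3. A kit for stranded, poly(A)-selected mRNA was used, per the labels' protocols. Per the submitters' processing notes, fastp, STAR 2.7.3a, edgeR and build mm10 were used. The read counter, its handling of strand and the annotation release were not given in the sources used here. Reads of close copies and overlapping genes are therefore uncertain. The authors deposited raw counts for 23863 genes, the same counts for 10255 filtered genes, the log2 CPM of those genes, and log2 fold changes with p-values and false discovery rates of their own comparisons. Only the full counts were tested here. 0 columns had no sample and 0 genes no name.

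In R 4.3.3 with edgeR 4.0.16, limma 3.58.1 and data.table version 1.17.8, filterByExpr (minimum count 10) kept 13236 genes. After TMM scaling, a single quasi-likelihood model with 4 group means was fitted to all 12 libraries. The call threshold was an adjusted p (Benjamini-Hochberg, over all tested genes) below 0.05. The script was tested on simulated data. Alternatives were other scalings, DESeq2 1.42.0, other filters, a replicate block, the 2 groups alone and each library left out. For the RANKL responses the block was the number within a sex. For female against male it was the number shared by both sexes, although the numbers do not pair libraries between the sexes. Positions and exon lengths came from GENCODE vM21 and promoters from RefSeq. Promoters on chromosome 18 were left out of the motif shares.

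All 9 receptors were named, with up to 4 genes of each context list called in both sexes with the largest mean change. Tyrobp, Card9, Bcl10, Ptpn6, Lyz2, Csf1r, Cd68, Csf3r, Mmp8, Ly6g, Retnlg, Clec4b1, Zbtb46, Itgae, Ccr7, Batf3, Kit and Prg2 were named after their values were seen. The likeness measure gave the 2 nearest genes with a mean of at least 5 CPM. The members and lists were chosen with earlier results of these data known. Replicates of a group differed by more than sampling noise (chi-square over its degrees of freedom 11.2 to 33.7). Replicate numbers come from the titles. Within a sex, same-numbered libraries of the 2 treatments deviated together from their group means (correlations of 0.302 to 0.706 over 8920 genes, against -0.618 to -0.00958 for other numbers), so the numbers pair the libraries within a sex. Between the sexes they do not. Deviations from a group mean cancel out within the group, so the negative correlations for other numbers follow from the positive ones and are no separate support.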

Additional observations from a re-analysis of the deposited data

How the results depend on the processing

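No value of the 9 receptors or the 11 context genes changed direction while called, in 1329 recomputed values under the other scalings, DESeq2, other filters, the replicate block, smaller fits and libraries left out. Of these, 1297 kept their side of the threshold, 14 lost it and 18 gained it. All of these changes lay in the RANKL responses. The total also holds the sex contrasts, where no receptor was called under any setting, so little could change there. In the female response, over 20 settings, Clec4a3 lost its call in 8 and Clec5a in 5, and Clec7a gained it in 9. In males 8 receptors were called with the replicate block, against 5 without it, where 63.1% of all tested genes were called with the block. It changed no call other than those of Clec4n, Clec7a, Clec4a1 and Clec4a3 given above. With 1 library left out, 4 to 7 receptors were called in females and 5 to 6 in males, beside 6293 to 7048 genes in females (46.4 to 52.1% of those tested) and 6675 to 7516 genes in males (49.5 to 55.7%). In the female response, Clec4a3 was lost with upper quartile scaling (adjusted p = 0.0506) and without both female libraries of number 3 (adjusted p = 0.0884). Clec7a was gained there with upper quartile scaling (adjusted p = 0.0456), DESeq2 (0.0358), no filter (0.0456), the genes of the authors' filtered table (0.0481) and without both female libraries of number 3 (0.0264). Without those 2 libraries Clec4n was gained (0.77, adjusted p = 0.0201) and Il1b lost (1.02, adjusted p = 0.0567). In males Clec4n was gained when only the 2 groups were fitted (adjusted p = 0.0325). The count of genes called between the sexes in M-CSF+RANKL, 7, was 20 by DESeq2, 11 with no filter and 6 to 12 with 1 library left out, the highest without female M-CSF+RANKL library 2. In M-CSF, 6 genes became 16 by DESeq2, 12 with no filter and 10 when only the 2 groups were fitted. The causes were not tested. No receptor was among them under any of these settings. Adjusted p-values for Clec5a in females ran from 0.00242 to 0.109 over the alternatives, and for Clec4a3 from 0.000701 to 0.170.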
